A study of Mus musculus with 39 samples.

Results

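The Hox genes of lumbar dorsal root ganglia (DRG) are described here. Levels L1 and L5 were compared in newborn cells sorted by TrkC and in adult ganglia. Pooled lumbar levels were compared in newborn mice that lack or overproduce the neurotrophin NT3. Members were all probe sets annotated to 1 gene whose symbol is Hoxa, Hoxb, Hoxc or Hoxd followed by a number, a rule that reads gene symbols only. This gave 48 probe sets for 33 Hox genes, out of 18193 genes with a probe set of their own on the arrays. The Hoxa and Hoxb clusters contributed 9 genes each, Hoxc 7 and Hoxd 8, of which 14 belonged to paralog groups 9 to 13 and 19 to groups 1 to 8. Left out were 3 probe sets shared by 2 Hox genes and 5 for antisense transcripts, and Hox genes without a probe set of their own are not analysed here. Where a gene had more than 1 probe set, as 11 did, the one with the highest mean over all arrays stands for it.

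Hox genes encode homeodomain transcription factors in clusters whose gene order matches the order of expression along the body, so that higher paralog numbers are used further caudally. In the spinal cord they set the segmental identity of motor neurons, and in the vertebral column Hox10 proteins suppress ribs at lumbar levels. Sensory neurons and glia of the DRG come from neural crest that carries such a code, and Hoxd1 is known in mouse DRG as a gene of nociceptors.

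The study sorted cells of newborn (p0) lumbar DRG from mice carrying a TrkCGFP BAC transgene, in which regulatory elements of the NT3 receptor TrkC (Ntrk3) drive GFP, and profiled GFP-positive (TrkC+, mostly proprioceptors) and GFP-negative (TrkC-) cells on Affymetrix arrays. By the paper's counts in p0 DRG, many TrkC-expressing cells and some neurons expressing the proprioceptor factor Runx3 lacked GFP. The label TrkC- here thus means GFP-negative, and these cells can include both. The strain label of the samples is 129/C57Bl6. One experiment pooled levels L1 to L6, with 350 cells on average and 2 arrays per group, from wild-type, Bax-/-, NT3-/-Bax-/- and mlcNT3 mice. A second took 100 wild-type cells from L1 or from L5 (2 arrays of L1 TrkC+ cells and 3 of each other group), and another took adult wild-type L1 or L5 ganglia from mice without a wheel or with 5 weeks of voluntary running (3 arrays per group).

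Loss of Bax, a gene needed for the death of neurons, keeps neurons alive without NT3, so Bax-/- mice are the control for NT3-/-Bax-/-. In mlcNT3 mice a muscle myosin light chain promoter drives NT3, and these mice keep more proprioceptors. All sorted p0 groups, controls included, carried the GFP transgene. For wheel mice the methods name C57Bl6 males where the labels give the mixed strain. Titles of adult samples tie L1 to TrkC+ and L5 to TrkC-, but the other labels do not and the methods describe whole ganglia, so that adult samples are called L1 and L5 only. No source says that arrays of a group came from separate animals, so p-values measure the spread between arrays. In these bulk samples, fewer cells of a type and less RNA per cell cannot be told apart.

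Values are log2 expression values of the authors' normalized intensities. The median per array ran from 6.02 to 6.18, and arrays of a group correlated at 0.972 or above at p0 and 0.994 or above in adults. Ntrk3 was 10.72 to 11.94 in TrkC+ arrays and 5.95 to 8.50 in TrkC- arrays, except for 9.09 and 9.15 in NT3-/-Bax-/- TrkC- cells. The proprioceptor transcription factor gene Runx3 was 8.26 to 10.64 against 3.20 to 4.89, with no overlap. Parvalbumin (Pvalb) was 12.57 to 13.56 in TrkC+ arrays of the other genotypes but 7.29 and 9.71 in NT3-/-Bax-/- TrkC+ cells, and it reached 9.80 on an L1 TrkC- array. In adults Pvalb and the nociceptor channel gene Scn10a were both present at every level, with group means of 9.69 to 10.70 and 8.11 to 8.40.

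For 13 of the 33 genes the probe set was dim, with a mean under 6, as was true of 47.7% of all probe sets. These were Hoxa2, Hoxa4, Hoxa11, Hoxa13, Hoxb1, Hoxb7, Hoxb9, Hoxb13, Hoxc5, Hoxc13, Hoxd11, Hoxd12 and Hoxd13, so every measured gene of groups 11 to 13 was among them. Differences of these genes rest on weak signal. The deposited values come without detection calls, so where one of the groups compared lies under 6 the size of a difference depends in part on background, and this holds for Hoxd10 and for Hoxc10 of adult L1 ganglia too.

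In adults the largest differences between levels were those of paralog group 10. At p0 all Hox genes called higher at L5, averaged over TrkC+ and TrkC- cells, belonged to groups 9 and 10. The sequences around their start sites are shown because these genes were higher together at L5. That of Hoxd1, which was called lower at L5 in adults, is shown for contrast, and Hoxc10 is not shown. The stretches, from RefSeq on GRCm38.p6, run from 250 bases before to 50 bases after the start site, 5′ to 3′ on the strand of the gene, and capitals mark matches to the searched motifs on either strand.
Hoxa9, chr6:52227321-52227620: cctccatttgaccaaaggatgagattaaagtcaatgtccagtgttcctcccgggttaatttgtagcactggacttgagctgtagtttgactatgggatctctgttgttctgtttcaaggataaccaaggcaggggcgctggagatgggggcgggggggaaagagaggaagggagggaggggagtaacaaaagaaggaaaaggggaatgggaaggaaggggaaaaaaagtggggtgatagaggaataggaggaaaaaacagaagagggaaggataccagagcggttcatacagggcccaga
Hoxa10, chr6:52240805-52241104: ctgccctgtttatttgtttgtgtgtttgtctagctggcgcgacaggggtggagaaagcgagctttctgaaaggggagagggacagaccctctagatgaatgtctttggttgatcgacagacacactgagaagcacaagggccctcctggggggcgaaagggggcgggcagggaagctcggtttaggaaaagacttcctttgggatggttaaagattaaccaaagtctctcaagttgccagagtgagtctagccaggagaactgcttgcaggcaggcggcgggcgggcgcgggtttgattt
Hoxa10, chr6:52234890-52235189: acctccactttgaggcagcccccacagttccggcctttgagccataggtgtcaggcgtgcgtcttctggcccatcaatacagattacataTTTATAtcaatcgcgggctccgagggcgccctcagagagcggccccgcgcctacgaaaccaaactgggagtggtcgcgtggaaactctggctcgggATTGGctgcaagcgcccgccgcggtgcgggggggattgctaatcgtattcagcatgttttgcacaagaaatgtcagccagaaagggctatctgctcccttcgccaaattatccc
Hoxd9, chr2:74697513-74697812: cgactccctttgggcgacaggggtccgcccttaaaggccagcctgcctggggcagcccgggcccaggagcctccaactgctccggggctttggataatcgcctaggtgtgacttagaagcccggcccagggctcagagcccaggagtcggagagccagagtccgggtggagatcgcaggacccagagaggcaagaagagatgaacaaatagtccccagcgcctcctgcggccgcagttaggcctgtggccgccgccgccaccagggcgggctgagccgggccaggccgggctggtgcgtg
Hoxd10, chr2:74691641-74691940: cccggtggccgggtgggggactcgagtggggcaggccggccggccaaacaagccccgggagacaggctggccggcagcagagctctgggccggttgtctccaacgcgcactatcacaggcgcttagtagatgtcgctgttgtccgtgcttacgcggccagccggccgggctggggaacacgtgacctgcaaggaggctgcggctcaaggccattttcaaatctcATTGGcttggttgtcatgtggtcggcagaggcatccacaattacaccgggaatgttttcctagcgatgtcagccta
Hoxd1, chr2:74762730-74763029: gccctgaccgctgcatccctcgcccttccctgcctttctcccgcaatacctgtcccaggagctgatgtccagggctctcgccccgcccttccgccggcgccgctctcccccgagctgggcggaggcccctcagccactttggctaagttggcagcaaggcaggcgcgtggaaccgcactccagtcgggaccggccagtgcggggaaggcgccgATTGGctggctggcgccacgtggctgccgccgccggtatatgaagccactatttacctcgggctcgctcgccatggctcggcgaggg
The Hoxa genes lie on the minus strand of chromosome 6 and the Hoxd genes on the plus strand of chromosome 2. The letters TATAAA were in 13.6% of all 32851 promoters and in 4 of 24 Hox promoters. CCAAT was in 37.4% and in 15 of 24. TGACAG, bound by Meis factors, TGATTNAT, bound by Pbx with Hox, and TTTATNG, bound by caudal Hox and Cdx factors, were in 19.2%, 3.22% and 10.9% of all promoters and in 2 Hox promoters each. Of those printed, the second Hoxa10 window held TATAAA and CCAAT at -160 and -64 from the start, the Hoxd10 window CCAAT at -26 and the Hoxd1 window CCAAT at -37, all on the other strand. The GC content was 49.7% for Hoxa9, 54.3% and 57.3% for Hoxa10, 68.3% for Hoxd9, 62.7% for Hoxd10 and 69.7% for Hoxd1.

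The first question was whether newborn cells of the same population differ between L1 and L5. Averaged over TrkC+ and TrkC- cells, Hoxc10, Hoxd9, Hoxa10, Hoxd10 and Hoxa9 were called higher at L5, and no Hox gene was called lower. The step was 1.33-fold for Hoxa9 and between 2.25-fold and 3.03-fold for Hoxa10, Hoxd9 and Hoxc10, while Hoxd10 rose from weak signal. These are 5 of the 14 genes of groups 9 to 13 and include each measured gene of group 10, while 0 of the 19 genes of groups 1 to 8 was called by limma. Over all 45037 probe sets tested, 0.3% were called higher. The median difference (log2) was 0.20 over groups 9 to 13, 0.12 over groups 1 to 8 and -0.01 over all probe sets.

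Hoxc10, which takes part in lumbar motor neuron identity, was 6.55, 6.61 and 6.80 in L1 TrkC- cells and 9.07, 8.98 and 9.0 in L5 TrkC- cells. In TrkC+ cells it was 8.48 and 9.38 at L1 and 9.41, 9.86 and 10.03 at L5. Thus the levels were far apart in TrkC- cells and nearly touched in TrkC+ cells, whose L1 arrays were already above every L1 TrkC- array. The difference was 2.36 (5.14-fold, SE 0.22, adjusted p = 0.00166) in TrkC- cells and 0.83 (SE 0.25, adjusted p = 0.253) in TrkC+ cells, where the 95% interval ran from 0.29 to 1.38. Averaged over both populations Hoxc10 was 3.03-fold higher at L5 (adjusted p = 0.00537).

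Hoxa10, a rib-suppressing patterning gene, was 6.56, 6.99 and 6.72 in L1 TrkC- cells and 8.49, 8.03 and 8.07 in L5 TrkC- cells. In TrkC+ cells it was 7.14 and 7.08 at L1 against 8.20, 7.91 and 7.91 at L5. All L5 arrays exceeded all L1 arrays in both populations. The differences were 1.44 (SE 0.16, adjusted p = 0.005) in TrkC- cells and 0.90 (SE 0.18, adjusted p = 0.0731) in TrkC+ cells, with an average of 2.25-fold (adjusted p = 0.00537). The dimmer probe set of Hoxa10 differed by 0.19 in TrkC- and 0.02 in TrkC+ cells, neither called. Its mean over all arrays was 3.92, near the bottom of the scale, so it could hardly show such a step.

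Hoxd9, the neighbour of Hoxd10 in the cluster, was 7.18, 7.40 and 7.32 in L1 TrkC- cells and 9.43, 9.08 and 9.20 in L5 TrkC- cells. In TrkC+ cells it was 7.71 and 8.49 at L1 against 9.17, 8.89 and 9.72 at L5. Levels did not overlap in either population. The difference was 1.94 (3.84-fold, SE 0.23, adjusted p = 0.00748) in TrkC- cells and 1.16 (SE 0.26, adjusted p = 0.114) in TrkC+ cells, and the average was 2.93-fold (adjusted p = 0.00638).

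Hoxd10, which with Hoxc10 patterns lumbar motor columns, was 4.30, 4.15 and 4.59 in L1 TrkC- cells but 6.03, 7.41 and 6.71 at L5. In TrkC+ cells it was 4.81 and 4.82 at L1 and 7.13, 5.54 and 5.64 at L5. The L1 arrays were near the bottom of the scale, and the L5 arrays were higher but scattered. Its average difference was 1.83 (SE 0.31, adjusted p = 0.0341), while neither population alone was called (adjusted p = 0.0642 and 0.37). Hoxa9 was 11.75, 11.74 and 11.82 in L1 TrkC- and 12.30, 12.25 and 12.36 in L5 TrkC- cells, and 12.01 and 11.99 against 12.30, 12.23 and 12.30 in TrkC+ cells, a small step with no overlap that averaged 1.33-fold (adjusted p = 0.049).

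Within TrkC- cells 3 Hox probe sets were called higher, those of Hoxc10, Hoxa10 and Hoxd9, against 0.138% of all probe sets. Within TrkC+ cells only 1 was, the dimmer probe set of Hoxa5, against 0.266% (0.91, adjusted p = 0.0498), from 7.39 and 7.47 at L1 to 8.43, 8.50 and 8.09 at L5. The brighter Hoxa5 probe set was 8.52 and 8.50 at L1 and 8.50, 8.44 and 8.49 at L5, nearly level. In TrkC+ cells 15 Hox probe sets had an unadjusted p under 0.05.

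Hoxc8 and Hoxc9, genes of brachial and thoracic identity, had differences of opposite sign in the sorted populations, none of them called. Hoxc8 was 10.78 and 10.98 at L1 and 10.47, 10.13 and 9.69 at L5 in TrkC+ cells (-0.78, adjusted p = 0.211), but 7.83, 7.68 and 8.04 at L1 and 8.53, 8.45 and 8.80 at L5 in TrkC- cells (0.74, adjusted p = 0.384). Hoxc9 differed by -0.48 in TrkC+ cells (adjusted p = 0.355) and by 0.32 in TrkC- cells (adjusted p = 0.953). The test of the TrkC+ effect against the TrkC- effect gave -1.53 for Hoxc8 (SE 0.29, adjusted p = 0.122) and -1.53 for Hoxc10 (SE 0.33, adjusted p = 0.179). In that test limma called 0 Hox probe sets, with 10 at an unadjusted p under 0.05, and 0.0666% of all probe sets were called.

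The p0 calls of Hoxc10, Hoxa10 and Hoxd9 averaged over populations were kept under all 16 alternatives run per gene, which change the normalization, the filter, the variances, the probe sets or the arrays, with adjusted p of at most 0.0298 where one was computed. For a gene with 1 probe set, such as Hoxc10 or Hoxd9, the mean of its probe sets repeats the main value and could not lose the call. The methods' t-test was run for counts only and not on averages; after Benjamini-Hochberg adjustment it called 0 Hox probe sets between levels in TrkC+ or in TrkC- cells. Hoxa9 lost its call under 13 of 16, among them each of the 11 arrays left out in turn, and Hoxd10 under 8 of 15; the count fell from 5 to 3 without L1 TrkC+ replicate 1 or 2, any L1 TrkC- replicate or L5 TrkC- replicate 2 or 3. Without L5 TrkC- replicate 1 the TrkC- call of Hoxd9 was lost (adjusted p = 0.0574), and the Hoxa5 call was lost without either L1 TrkC+ replicate or without L5 TrkC+ replicate 1 or 2.

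**Figure D1:**
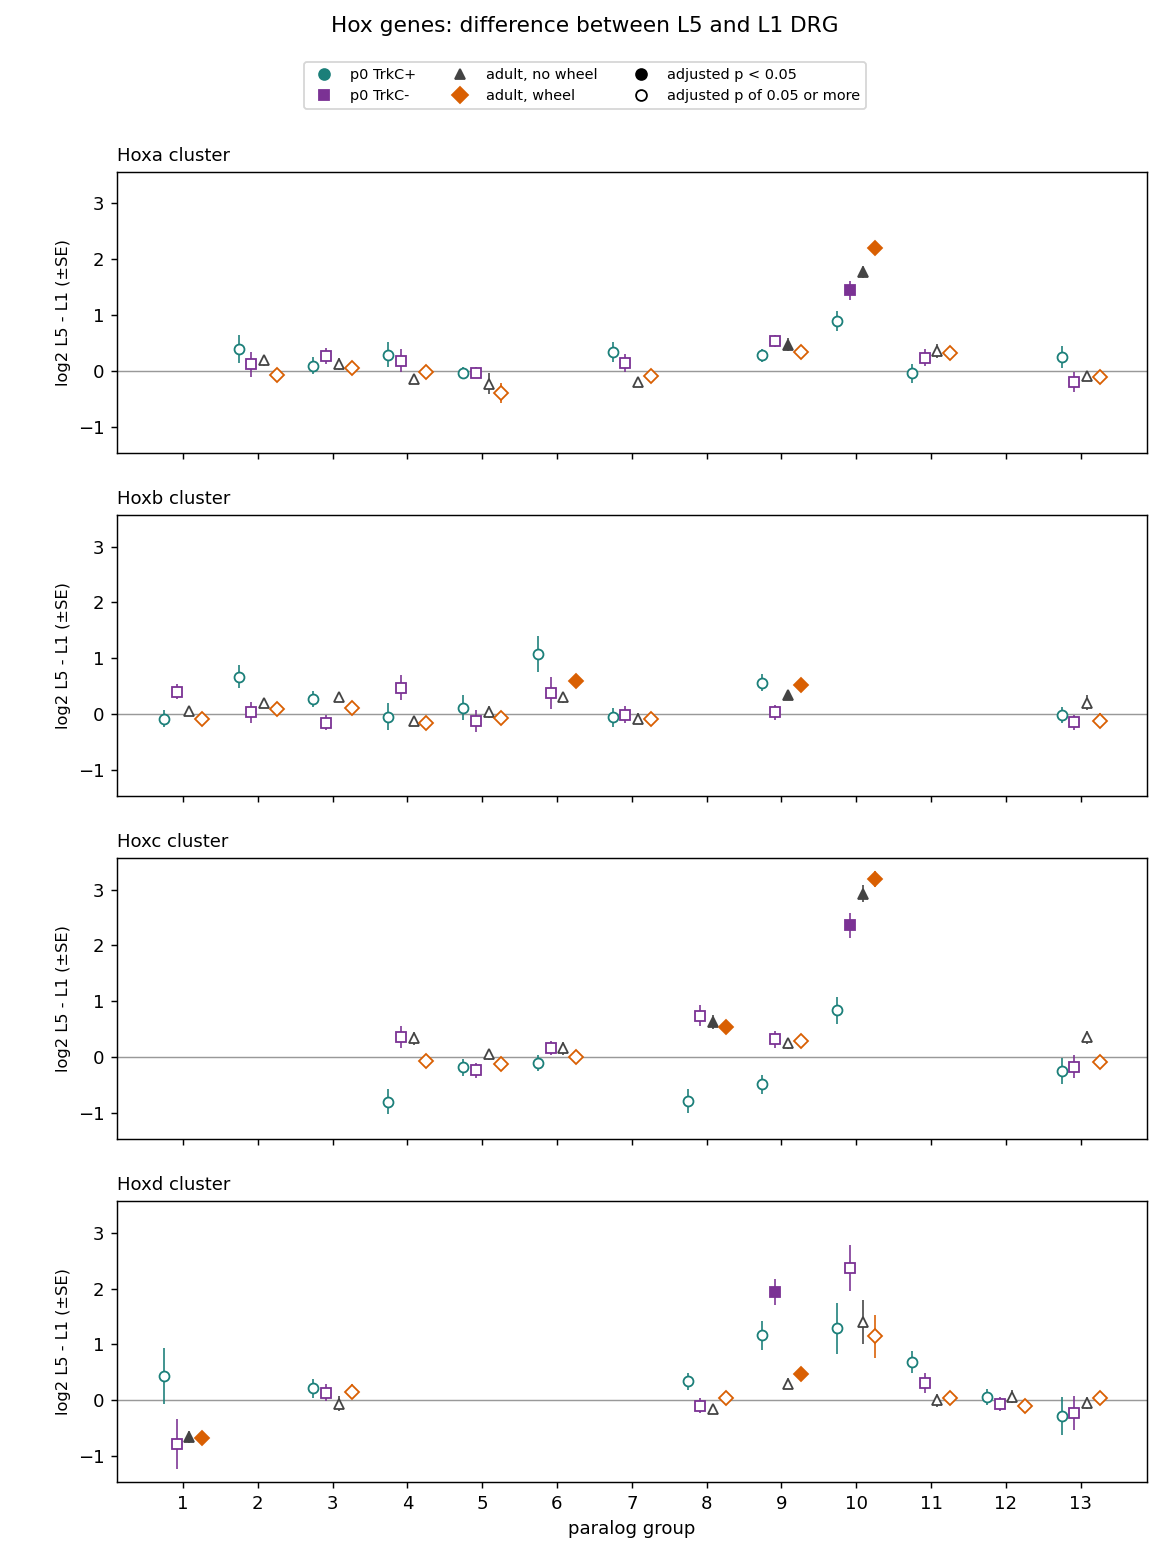
Difference between L5 and L1 (log2, y axis; bars ± SE) of every measured Hox gene by paralog group (x axis), with 1 panel per cluster, for p0 TrkC+ cells, p0 TrkC- cells and adult ganglia; filled symbols have an adjusted p under 0.05. At p0 the positive differences are largest at groups 9 and 10, up to 2.37 for Hoxd10 in TrkC- cells (not called). In adults they are largest at group 10, up to 3.19 for Hoxc10.

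In adult ganglia the same comparison asked which genes differ between levels in grown mice, and whether running alters them. Averaged over both wheel conditions, 10 Hox genes were higher at L5 and 1, Hoxd1, was lower. The higher ones were Hoxa9, Hoxa10, Hoxa11, Hoxb9, Hoxc9, Hoxc10, Hoxd9 and Hoxd10, 8 of the 14 genes of groups 9 to 13, with Hoxb6 and Hoxc8 among the 19 of groups 1 to 8. By probe sets 13 were called higher and 1 lower, against 5.07% and 5.01% of all probe sets. The 5 genes higher at p0 were all among the 10, which is 50% of the adult list. The median difference was 0.31 over groups 9 to 13, -0.01 over groups 1 to 8 and -0.01 over all probe sets.

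Hoxc10 was 5.85, 5.66 and 5.21 at L1 and 8.76, 8.48 and 8.24 at L5 without a wheel. With a wheel it was 5.62, 5.82 and 5.87 at L1 and 8.98, 8.90 and 9.0 at L5. The levels were separated by more than 2 units on every pair of arrays. The differences were 2.92 (7.59-fold, SE 0.15, adjusted p = 9.14e-08) and 3.19 (9.14-fold, SE 0.15, adjusted p = 2.31e-08).

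Hoxa10 was 7.42, 7.62 and 7.20 at L1 and 9.31, 9.08 and 9.16 at L5 without a wheel, and 7.31, 7.17 and 7.36 against 9.46, 9.46 and 9.54 with a wheel. Here too the levels were well apart. The differences were 1.77 (3.41-fold, adjusted p = 4.1e-07) and 2.2 (4.61-fold, adjusted p = 2.31e-08). The dimmer probe set of Hoxa10, near the bottom of the scale, differed by 0.01 on average and was not called. Hoxd10 was 5.00, 5.25 and 4.83 at L1 against 7.33, 6.82 and 5.14 at L5 without a wheel, and 4.92, 4.79 and 4.61 against 6.16, 5.33 and 6.25 with one. One L5 array without a wheel lay inside the L1 range, and the average difference was 1.27 (SE 0.27, adjusted p = 0.00727).

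The other steps were below 1 log2 unit. Hoxc8 was 8.26, 8.49 and 8.43 at L1 and 8.65, 9.18 and 9.23 at L5 without a wheel, and 8.39, 8.28 and 8.35 against 8.88, 8.86 and 8.90 with one, an average of 0.58 (adjusted p = 0.000551). Hoxb6 averaged 0.44 (adjusted p = 0.000715) and Hoxb9 0.43 (adjusted p = 0.000445), although Hoxb9 is dim, at 5.16 to 5.47 at L1 and 5.60 to 5.83 at L5. In each of these sets of arrays L5 was above L1, but for Hoxb6 the highest L1 array, 6.99, lay close to the lowest L5 array, 7.11.

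Hoxa9 averaged 0.40 (adjusted p = 0.00544), Hoxd9 0.38 (adjusted p = 0.00182), Hoxa11 0.34 (adjusted p = 0.0177) and Hoxc9 0.27 (adjusted p = 0.0201). Hoxd9 ran from 8.04 to 8.54 at L1 and from 8.61 to 8.84 at L5, without overlap. Secondary probe sets of Hoxa9, Hoxc5 and Hoxb3 were called too, at 0.52, 0.43 and 0.26, the latter pair for genes whose brighter probe set was not.

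Hoxd1 went the other way. It was 9.36, 9.59 and 9.66 at L1 and 8.99, 8.74 and 8.89 at L5 without a wheel, and 9.50, 9.60 and 9.68 against 8.92, 9.03 and 8.79 with a wheel. Every L1 array was above every L5 array. Hoxd1 fell by 0.66 without a wheel (adjusted p = 0.00188) and by 0.68 with a wheel (adjusted p = 0.00105) from L1 to L5, or 1.59-fold on average. Of 7 nociceptor markers 4 were called lower at L5 (Scn11a, Trpv1, Runx1 and P2rx3) and 0 higher, against 5.01% and 5.07% of all probe sets. Their summed intensities overlapped, with 22643 to 32149.6 at L1 and 20964 to 23847 at L5. The part of cell makeup in the Hoxd1 difference was not tested.

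Proprioceptor markers also moved between adult levels, with 6 of 6 measured higher at L5 (median 0.91), where 5.07% of all probe sets were called higher. Their summed intensity was 1598 to 1965 at L1 and 2696 to 3599 at L5. Their part in the Hox differences was not tested. By its own test the paper found no significant difference of TrkC between adult L1 and L5 DRG. At p0, where cells were sorted, 0 of 6 proprioceptor and 0 of 7 nociceptor markers were called between levels in the averaged test. It called 0.3% of all probe sets higher, and of the marker lists only the pericyte gene Rgs5 (1.01). In TrkC+ cells Runx3 was 9.23 and 9.43 at L1 and 8.26 to 8.90 at L5. Ntrk3 went the other way, with 11.43 and 11.49 against 11.50 to 11.94.

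Of the genes that work with or upstream of Hox proteins, none was called between L1 and L5 at p0 (limma, averaged). That test called 0.3% of all probe sets higher. The lists held 8 TALE partners, 12 Cdx and axial patterning regulators, 16 Polycomb genes, 10 Trithorax genes, 14 genes of the retinoic acid pathway and 6 hindlimb field factors. In TrkC+ cells TALE sums were 8236 and 9069 at L1 and 6331 to 6766 at L5. Hindlimb field sums went the other way, 6525 and 6606 against 7191 to 7372. In TrkC- cells TALE sums overlapped, 4883 to 5873 against 4997 to 5943. In adults the TALE gene Meis2 (0.29), the Gdf11 receptor gene Tgfbr1 (0.30), and the Polycomb gene Kdm2b (0.43) were higher at L5, and the Trithorax partner Men1 was lower (-0.24). Of the retinoic acid genes 4 were higher, led by Aldh1a2, which encodes a retinoic acid synthesizing enzyme (1.59), and Rxrg was lower (-0.63). No hindlimb field factor was called. The adult test called 5.07% of all probe sets higher and 5.01% lower.

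Without a wheel 7 Hox probe sets were called higher at L5 and 1 lower, against 1.92% and 2.76% of all probe sets, and with a wheel also 7 and 1, against 3.26% and 2.17%. Between wheel and no wheel limma called 0 Hox probe sets at L1 or at L5, with 5 and 8 at an unadjusted p under 0.05, against 0.242% and 0.48% of all probe sets. At L5 Hoxc10 differed by 0.47 (95% interval 0.15 to 0.79, adjusted p = 0.135) and Hoxa10 by 0.30 (95% interval 0.08 to 0.53, adjusted p = 0.168). The difference between the level effects with and without a wheel was 0.43 for Hoxa10 (adjusted p = 0.306), and no Hox probe set was called in that test, with 4 at an unadjusted p under 0.05 and 0% of all probe sets called.

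Calls of Hoxc10, Hoxa10 and Hoxd1 between adult levels, in each wheel condition and averaged, were kept under every alternative run per gene. The methods' t-test, run for counts only, called 0 Hox probe sets without a wheel and 3 with one after Benjamini-Hochberg adjustment. The count without a wheel, 8, was 5 without L1 replicate 2 or 3 or L5 replicate 2 and 4 without L5 replicate 3, and without L5 no-wheel replicate 1 there was 1 Hox call for the wheel at L5.

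**Figure D2:**
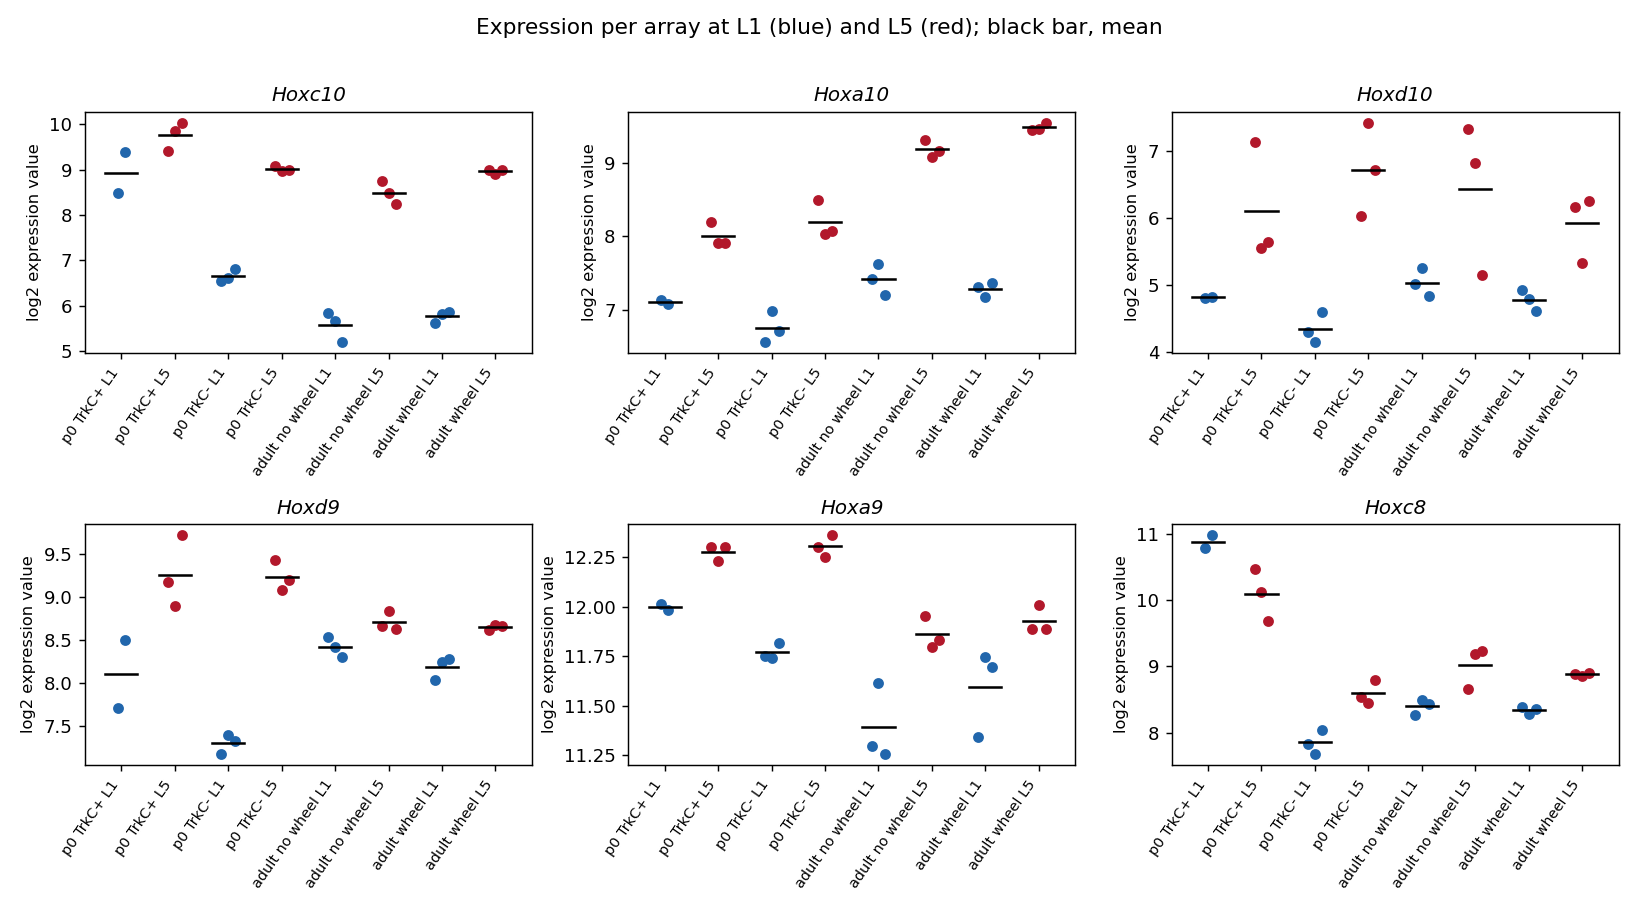
Log2 expression value (y axis) of Hoxc10, Hoxa10, Hoxd10, Hoxd9, Hoxa9 and Hoxc8 on each array (points) at L1 (blue) and L5 (red) in p0 TrkC+ cells, p0 TrkC- cells and adult ganglia with or without a wheel (x axis), with the group mean as a black bar. Hoxc10 in L1 TrkC+ cells, at 8.48 and 9.38, lies far above the L1 TrkC- arrays at 6.55 to 6.80.

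The sort asked which genes distinguish TrkC+ from TrkC- cells of the same ganglia. Hoxc8 and Hoxc10 were higher in TrkC+ cells at both levels, and Hoxd1, Hoxd3, Hoxd8 and Hoxb5 were lower. At L1, 6 Hox probe sets were called higher and 8 lower, against 9.03% and 8.92% of all probe sets. At L5, 6 were higher and 6 lower, against 9.91% and 10% of all probe sets. By genes this was 5 higher and 7 lower at L1, and 5 and 5 at L5.

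Hoxc8 led the higher group, with 10.78 and 10.98 in L1 TrkC+ cells against 7.83, 7.68 and 8.04 in L1 TrkC- cells, and 10.47, 10.13 and 9.69 against 8.53, 8.45 and 8.80 at L5. No TrkC- array reached a TrkC+ array. The differences were 3.03 (8.16-fold, SE 0.22, adjusted p = 3.58e-06) at L1 and 2.83-fold (SE 0.19 on the log2 scale, adjusted p = 0.000218) at L5. Hoxc10 differed by 2.28 at L1 (4.85-fold, adjusted p = 7.13e-05) and by 0.75 at L5 (adjusted p = 0.0337). At L1 Hoxc4, at 1.19 (adjusted p = 0.00294), and Hoxc9, at 0.97 (adjusted p = 0.00186), were higher as well, so that 4 of the 7 measured Hoxc genes were higher in TrkC+ cells there. The larger sort difference at L1 than at L5 is the same quantity as the Hoxc8 and Hoxc10 tests between level effects above, which were not called.

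Hoxd1 was 7.06 and 5.82 in L1 TrkC+ cells against 9.35, 9.10 and 9.66 in L1 TrkC- cells, and 6.01, 6.61 and 8.0 against 8.56, 8.35 and 8.83 at L5. TrkC+ arrays were lower throughout but scattered widely. The differences were -2.93 (SE 0.50, adjusted p = 0.00172) and -1.71 (SE 0.45, adjusted p = 0.0196). Hoxd8, a trunk gene next to Hoxd9, was 7.60 and 7.81 against 9.69, 9.44 and 9.45 at L1 and 8.09, 8.18 and 7.85 against 9.55, 9.45 and 9.28 at L5, a tight and complete separation (-1.82, adjusted p = 1.1e-05, and -1.39, adjusted p = 3.08e-05). Its other probe set was called lower as well (-1.53 and -1.21).

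Hoxb5, which acts in neural crest, was 6.18 and 6.06 against 7.85, 8.04 and 8.07 at L1 and 6.72, 6.18 and 5.80 against 7.80, 8.02 and 7.79 at L5. Again no arrays overlapped (-1.87, adjusted p = 0.000139, and -1.64, adjusted p = 0.000142). Hoxd3 was lower at both levels (-0.88 and -0.80), Hoxb6 (-1.26), Hoxb2 (-1.04) and Hoxb3 (-0.75) were called lower at L1, and Hoxb4 (-1.20) at L5. On the higher side, Hoxa4 (0.75) and Hoxb9 (0.51) were called at L5, as was a dim second probe set of Hoxa4 (0.49), and a dim probe set of Hoxa3 (0.72) was called at L1. The probe sets of Hoxa5 disagreed. The brighter one was called higher by 0.54 at both levels, but the other one was 7.39 and 7.47 in TrkC+ against 7.54, 7.72 and 7.81 in TrkC- cells at L1 (-0.26, adjusted p = 0.358) and differed by 0.44 at L5 (adjusted p = 0.0634). With the mean of both probe sets the L1 difference was 0.14 and no longer called.

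In the pooled L1 to L6 sample of wild-type cells 3 Hox probe sets were called higher and 3 lower in TrkC+ cells, against 5.12% and 3.83% of all probe sets. Hoxc8 (1.55, adjusted p = 0.022), Hoxc10 (1.28, adjusted p = 0.0157) and Hoxd8 (-1.12, adjusted p = 0.0235) had the signs seen at single levels, as did the second probe set of Hoxd8 (-1.18), and the second probe set of Hoxa5 was called higher (0.93), while Hoxd1 (-1.62, adjusted p = 0.0609) and Hoxb5 (-0.90, adjusted p = 0.0622) were not called. Bax-/- cells gave 3 higher and 5 lower, against 4.05% and 3.77%, with Hoxc8 at 1.75, Hoxc10 at 1.54, Hoxd8 at -1.86, Hoxb5 at -1.46, Hoxd3 at -0.76 and the second probe sets of Hoxd8 and Hoxa5 at -1.63 and 1.01.

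Hoxd10 was called by TrkC sign in pooled wild-type and Bax-/- cells and at neither single level, whereas some other members, such as Hoxc4, were called at L1 and not in these pooled cells. In pooled wild-type cells it was 5.96 and 6.37 in TrkC+ and 9.61 and 8.64 in TrkC- arrays, and in Bax-/- cells 5.20 and 5.14 against 7.83 and 8.73. The TrkC- arrays were far above the TrkC+ arrays, with differences of -2.96 (SE 0.68, adjusted p = 0.017) and -3.11 (adjusted p = 0.0148). At single levels the TrkC sign made no called difference to Hoxd10 (0.47 at L1, -0.61 at L5), and no L1 or L5 TrkC- array, at 4.15 to 7.41, reached the pooled wild-type TrkC- arrays. The pooled samples also hold L6 and the levels between, and the experiments differ in cells per array, and levels were not tested across experiments. The Hoxd10 sort call was lost without TrkC+ replicate 1 or 2 or TrkC- replicate 1 in wild-type (adjusted p of up to 0.159) and without TrkC+ replicate 1 or 2 or TrkC- replicate 2 in Bax-/- cells (up to 0.122).

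Markers of other cells moved with the sort. Over all probe sets 9.03% were called higher and 8.92% lower in TrkC+ cells at L1, and 9.91% and 10% at L5. At L1 the TrkC- arrays had 6 of 10 fibroblast and 7 of 9 endothelial and pericyte markers higher, that is, lower in TrkC+ cells, with summed fibroblast intensities of 859 to 1124 in TrkC+ and 5569.9 to 5699 in TrkC- arrays. At L5 the same held for 5 and 8 markers, with fibroblast sums of 1084 to 1634 and 5231 to 8503. Glial markers were called lower in TrkC+ cells for 4 of 10 and higher for 1, S100b, at each level, with sums of 8484 to 10498 against 16483 to 19874 at L1 and 8968 to 10725 against 15424.5 to 16566 at L5. All 7 nociceptor markers were lower and 5 of 6 proprioceptor markers higher in L1 TrkC+ cells. TALE genes differed in both directions (3 higher, 2 lower at L1), with Meis2 at 2.98 and Meis1 at -3.79. How much of the Hox differences belongs to neurons and how much to other TrkC- cells was not tested.

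At L5 the call of Hoxc10 was lost without any 1 TrkC- array or TrkC+ replicate 2 or 3 (adjusted p of up to 0.109), and that of Hoxd1 without TrkC+ replicate 1 or 2 or TrkC- replicate 1 or 3 (up to 0.0671). The calls of Hoxc8, Hoxd8 and Hoxb5 at L1 and L5, and of Hoxc10 and Hoxd1 at L1, were kept under every alternative run per gene, and the methods' t-test, run for counts only, called 5 Hox probe sets at each level after Benjamini-Hochberg adjustment. In pooled wild-type cells the count of 6 was 0 without TrkC+ replicate 1 or 2 or TrkC- replicate 1 and 2 without TrkC- replicate 2, and the Bax-/- count of 8 was 4 without TrkC+ replicate 2 or TrkC- replicate 1 and 5 without TrkC- replicate 2.

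**Figure D3:**
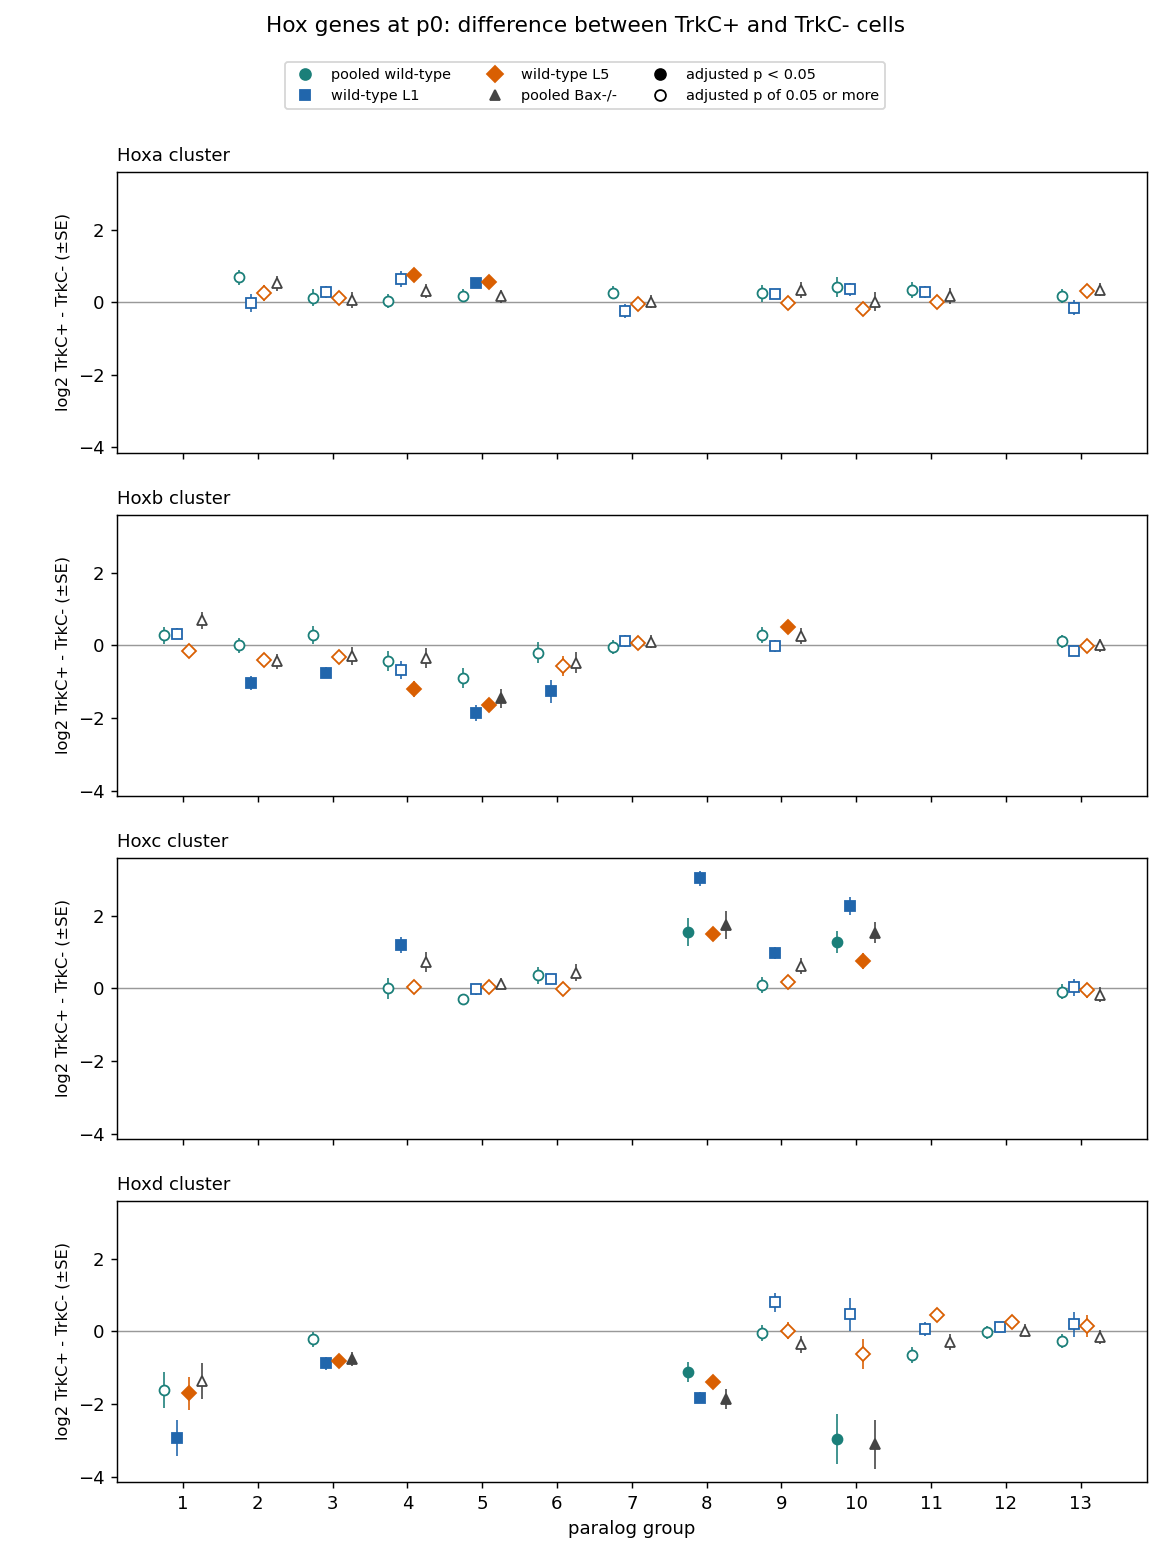
Difference between TrkC+ and TrkC- cells at p0 (log2, y axis; bars ± SE) of each Hox gene by paralog group (x axis), with 1 panel per cluster, for wild-type L1, wild-type L5, pooled wild-type and pooled Bax-/- cells; filled symbols have an adjusted p under 0.05. Hoxc8 and Hoxc10 lie above 0 and Hoxd1 and Hoxd8 below 0 in all 4 sets, and Hoxd10 drops to -2.96 and -3.11 in the pooled sets.

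The genotypes asked how NT3 shapes expression. Bax loss alone gave 0 Hox calls by limma in TrkC+ or TrkC- cells, with 4 and 5 at an unadjusted p under 0.05, against 0.5% and 0.178% of all probe sets. The largest of these in TrkC+ cells was Hoxd9 at -1.0 (adjusted p = 0.0834).

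In NT3-/-Bax-/- against Bax-/- TrkC+ cells 2 Hox probe sets were called higher and 3 lower, 10.4% of the 48 in either direction. Over all probe sets 9.05% were called higher and 9.17% lower, so Hox probe sets were not called more often. The calls included lower Hoxd1 and higher Hoxc10 and Hoxd3. Hoxd1 was 8.33 and 8.58 in Bax-/- and 4.60 and 3.38 in NT3-/-Bax-/- TrkC+ cells, 10.10 and 9.55 against 5.05 and 3.65 in TrkC- cells. Both populations fell from a clear signal to the low end of the scale, where the size of the drop is set in part by background and no fold is given. Hoxd1 fell by 4.47 in TrkC+ cells (SE 0.49, adjusted p = 8.77e-05) and by 5.48 in TrkC- cells (SE 0.49, adjusted p = 3.22e-05), and the effects were not shown to differ (1.01, adjusted p = 0.443).

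Hoxc10 was 9.08 and 9.91 in Bax-/- and 10.66 and 11.05 in NT3-/-Bax-/- TrkC+ cells, with no overlap (1.36, 2.56-fold, SE 0.29, adjusted p = 0.00665). In TrkC- cells it was 7.72 and 8.19 against 8.44 and 8.63, and 0.58 was not called (adjusted p = 0.193). Hoxd3, an anterior Hoxd gene, rose from 5.48 and 4.83 to 6.02 and 6.09 in TrkC+ cells (0.90, adjusted p = 0.00777). The Bax-/- arrays were thus dim, under 6, and wild-type TrkC+ arrays were 5.71 and 5.81. Hoxa7 (-0.58, adjusted p = 0.041) and a dim probe set of Hoxc5 (-1.04, adjusted p = 0.0491) were called lower, and Hoxc8, 10.56 and 11.42 against 9.48 and 10.24, was not called (-1.13, adjusted p = 0.0565).

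In TrkC- cells 5 Hox probe sets were called higher and 4 lower without NT3, against 9.91% and 11.8% of all probe sets. Hoxd8 was 9.61 and 9.56 in Bax-/- and 7.80 and 6.85 in NT3-/-Bax-/- TrkC- cells, lower on both arrays (-2.26, SE 0.27, adjusted p = 0.0002). Its other probe set fell less, from 9.50 and 9.30 to 8.27 and 8.28 (-1.12, adjusted p = 0.0128). The second probe set of Hoxa5 was called higher (0.98, adjusted p = 0.0169). Hoxb5 was 7.93 and 8.59 against 9.18 and 10.07, higher on both arrays (1.36, adjusted p = 0.00385). Hoxb1, a gene of hindbrain patterning, was 3.73 and 3.81 against 4.53 and 5.23 (1.11, adjusted p = 0.00439), a rise within dim signal. Hoxa2 (0.93) and Hoxa13 (0.61) were higher and Hoxc8 lower (-1.22, adjusted p = 0.0359).

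Cell markers moved with this comparison. In TrkC- cells 9.91% of all probe sets were called higher and 11.8% lower, and in TrkC+ cells 9.05% and 9.17%. Fibroblast markers were higher in NT3-/-Bax-/- than in Bax-/- TrkC- cells for 9 of 10 measured (median 4.22), with summed intensities of 31980.2 and 49749 against 2065 and 3340, and endothelial and pericyte markers for 7 of 9 (median 2.27), with 5578 and 7067 against 1547 and 2766. Of the glial markers 5 of 10 were higher and 1 lower, with sums of 29521.5 and 33924 against 15688 and 15989.9. Macrophage and blood markers were high on 1 of the NT3-/-Bax-/- TrkC- arrays, with sums of 13885.5 and 3237 against 485 and 101.3 on the other, and were not called. Neuronal markers were lower, with 3 of 8 pan-sensory and 2 of 7 nociceptor markers called and sums of 23575 and 31655 against 44067 and 47122 and of 18163 and 34111 against 43475 and 45217. Scn10a was lower (-3.44) and Ntrk3 higher (1.99). Their part in the Hox changes of TrkC- cells was not tested. In TrkC+ cells 0 of 10 fibroblast markers were called, with sums of 1232 and 1556 against 921 and 1158. There 4 of 10 glial markers and 1 of 9 endothelial and pericyte markers were lower, and Pvalb fell by 4.62. Pan-sensory markers were lower for 2 of 8, with sums of 29159 and 36165 against 46053 and 48123. Their part in the Hox changes of TrkC+ cells was not tested.

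Of the regulators, 9 of 16 Polycomb genes, 3 of 8 TALE genes with Meis1 at 2.59, and 4 of 14 retinoic acid genes with Crabp1, a retinoic acid binding protein gene, at 6.03 were higher in NT3-/-Bax-/- TrkC+ cells. One TALE gene, 1 retinoic acid gene and 1 of 10 Trithorax genes were lower, and 4 Trithorax genes higher. In TrkC- cells 0 TALE genes were higher and 3 lower, and 2 Polycomb genes were higher. Over all probe sets 9.05% were called higher and 9.17% lower in TrkC+ cells, and 9.91% and 11.8% in TrkC- cells. Lists with 1 lower gene in TrkC+ cells lay near that share.

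With surplus NT3 from muscle, a single Hox gene was called. Hoxb1 was 4.06 and 4.17 in wild-type and 6.41 and 6.82 in mlcNT3 TrkC+ cells, and 3.79 and 3.90 against 4.05 and 3.67 in TrkC- cells. The mlcNT3 TrkC+ pair stood above all other pooled arrays, of which the highest was 5.23. The wild-type arrays were near the bottom of the scale. The TrkC+ difference was 2.50 (SE 0.23, adjusted p = 0.000572), and 0.138% of all probe sets were called higher. Hoxb2 (6.34 and 6.18 against 7.55 and 7.20), Hoxb5 (6.81 and 7.01 against 8.09 and 8.01) and Hoxb6 (6.62 and 6.89 against 7.99 and 7.78) were above wild-type on both arrays but not called (1.12, 1.14 and 1.13, adjusted p = 0.0545, 0.181 and 0.238). In mlcNT3 TrkC+ cells 16 of the 19 genes of groups 1 to 8 had positive differences, with a median of 0.35 against -0.02 over all probe sets, and Hoxc10, 9.67 and 9.59 against 8.90 and 8.62, was at -0.87 (adjusted p = 0.507). In TrkC- cells limma called 0 Hox probe sets, with 2 at an unadjusted p under 0.05, against 0.00444% of all probe sets. None of the regulator or marker lists had a call between mlcNT3 and wild-type TrkC+ cells. Some summed intensities were nonetheless lower on both mlcNT3 arrays. Proprioceptor sums were 11561 and 14855 against 15699 and 16987, and pan-sensory sums 30831 and 41414 against 44451 and 45239. TALE sums were 3729 and 4435 against 6388 and 6892, while macrophage sums were higher, 383 and 552 against 314.5 and 329. The part of these shifts in the Hox differences was not tested.

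The TrkC sort in the NT3 genotypes had members in common with wild-type and members that differed. In mlcNT3 cells 8 Hox probe sets were higher and 2 lower in TrkC+ cells, against 4.18% and 5.84%, with Hoxb1 at 2.75 (adjusted p = 1.37e-05), Hoxc8 at 2.25, Hoxb9 at 1.18, Hoxb6 at 1.02, Hoxa7 at 1.01, Hoxb2 at 1.00, Hoxa5 at 0.76 and Hoxd8 at -1.66, and the second probe sets of Hoxa5 and Hoxd8 at 1.16 and -1.78. In NT3-/-Bax-/- cells 4 were higher and 6 lower, against 10.4% and 8.94%, with Hoxc10 at 2.32, Hoxc8 at 1.84, Hoxc4 at 0.94 and Hoxd3 at 0.68 on one side and Hoxb5 at -3.13 (adjusted p = 1.04e-05), Hoxb6 at -1.77, Hoxb4 at -1.0, Hoxb2 at -0.95, Hoxb1 at -0.70 and a dim probe set of Hoxc5 at -1.34 on the other. All 10 glial, 9 of 10 fibroblast and 9 of 9 endothelial and pericyte markers were lower in these TrkC+ cells. The sums were 4235 and 8259 against 29521.5 and 33924 for glial, 1232 and 1556 against 31980.2 and 49749 for fibroblast, and 380.5 and 643 against 5578 and 7067 for endothelial and pericyte markers, and their part in the Hox differences was not tested. Hoxd8 (-0.10) and Hoxd1 (-0.36) showed no called sort difference there. Hoxc8 was thus higher in TrkC+ cells of all 4 genotypes. In the test of NT3 loss between the populations, which was added after seeing the data, 3 Hox probe sets were called in each direction, against 4.53% and 5.13% of all probe sets, and in that of mlcNT3 1 was called higher, against 0.0244%.

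Hoxd1 without NT3, in both populations, and Hoxb1 in mlcNT3 TrkC+ cells were kept under every alternative run per gene that tested them. The methods' t-test, run for counts only, called 0 Hox probe sets in these comparisons after Benjamini-Hochberg adjustment. Counts moved without single arrays: NT3 loss in TrkC+ cells, 5 calls, gave 3 without Bax-/- replicate 2 or NT3-/-Bax-/- replicate 1 and 10 without NT3-/-Bax-/- replicate 2; in TrkC- cells, 9 calls, it gave 4 without Bax-/- replicate 1, and the TrkC+ calls of Hoxc10 and Hoxd3 were lost without Bax-/- replicate 1 and 2 in turn and with only the groups compared (adjusted p of up to 0.101 and 0.161). Of the other calls in TrkC- cells, Hoxb5 was lost without Bax-/- replicate 1, Hoxc8 without either Bax-/- replicate or NT3-/-Bax-/- replicate 2, Hoxa2 without the latter, and Hoxa13, like Hoxa7 in TrkC+ cells, without any 1 of the arrays compared.

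The sort counts of 10 in NT3-/-Bax-/- and in mlcNT3 cells were 6 without NT3-/-Bax-/- TrkC+ replicate 1 or TrkC- replicate 2 and 5 without mlcNT3 TrkC- replicate 1. For Bax loss in TrkC+ cells there were 2 Hox calls without Bax-/- replicate 1.

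**Figure D4:**
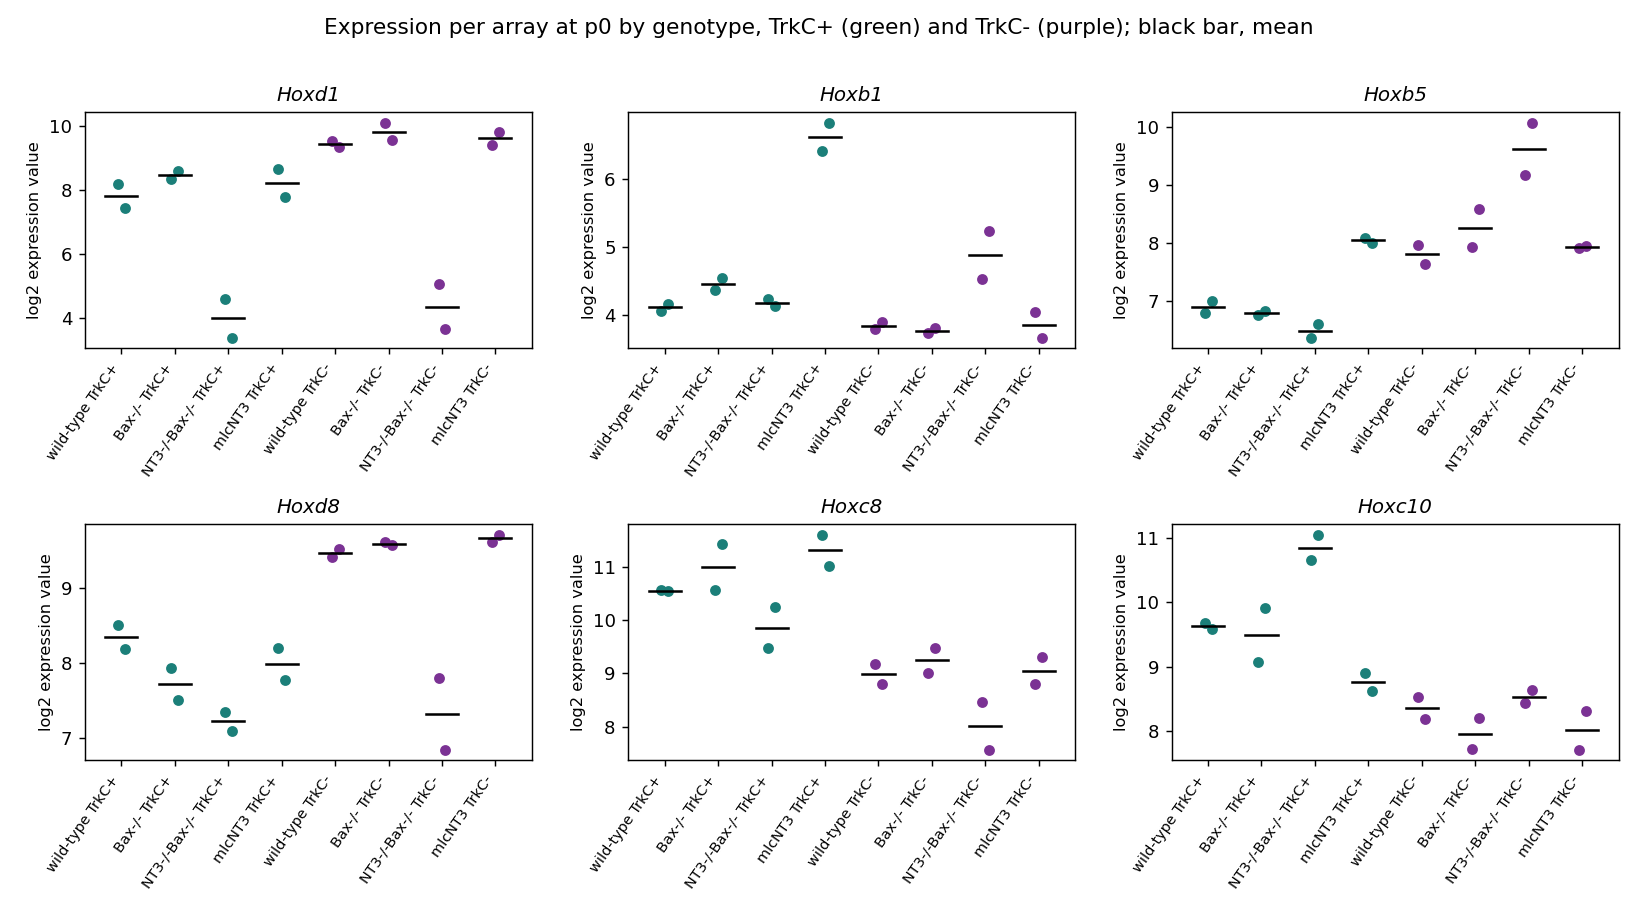
Log2 expression value (y axis) of Hoxd1, Hoxb1, Hoxb5, Hoxd8, Hoxc8 and Hoxc10 on each array (points) of pooled p0 lumbar cells by genotype (x axis), TrkC+ in green and TrkC- in purple, with the group mean as a black bar. Hoxd1 drops to between 3.38 and 5.05 in both NT3-/-Bax-/- populations, and Hoxb1 reaches 6.41 and 6.82 only in mlcNT3 TrkC+ cells among these groups.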

How the data were processed

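Labelled RNA of DRG cells or ganglia was hybridised to 39 Affymetrix arrays, 16 of pooled p0 lumbar cells, 11 of p0 L1 and L5 cells and 12 of adult ganglia. The deposited table holds linear intensity values of 45101 probe sets, which the authors normalized with RMA (R 2.9, per the submitters' processing notes), a method that includes quantile scaling, so differences are relative to the other probe sets of an array. The log2 values were taken here from the deposited intensities without a pseudocount, 64 control probe sets were left out, and 45037 were tested. Probe sets were named through the platform annotation: 34945 had 1 gene symbol, 932 several and 9160 none. Array data give no read depth, and the number of arrays limits the precision.

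Each experiment was fitted on its own with limma 3.58.1 in R 4.3.3 (group means, empirical Bayes, no covariate), with Benjamini-Hochberg adjustment over all probe sets and calls at an adjusted p under 0.05. SE is that of the fitted difference and n is 2 or 3 arrays per group. The study's thresholds were a p of at most 0.02 and a change of at least 1.5-fold. Every Hox gene was counted; values per array were given for genes called between levels and for further genes called by TrkC sign or genotype, by size. Second probe sets were named where they were called. Gene lists of Hox partners, regulators and cell markers are described by counts. The members and lists were chosen with earlier results of these data known. Tests were checked on simulated data. Alternatives were quantile normalization, a filter at a mean log2 of 6, trended robust variances, a replicate block, fits of only the groups compared, the study's thresholds and the methods' t-test (these for counts only), the mean of a gene's probe sets and leaving out each array. The tests of genotype effects between TrkC+ and TrkC- cells were added after seeing the data.

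Marker lists not described with a result gave these counts between adult levels, averaged: 2 of 7 mechanoreceptor markers higher and 3 lower, 3 of 10 glial, 2 of 10 fibroblast and 3 of 8 macrophage markers higher, and none of 8 pan-neuronal, 9 endothelial and pericyte, 4 blood, 8 muscle and 10 spinal cord markers called. Over all probe sets 5.07% were called higher and 5.01% lower.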

Additional observations from a re-analysis of the deposited data

Results flagged for a closer look

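Some members responded to a genotype differently in the sorted populations, by a test of the difference itself (limma, added after seeing the data). For NT3 loss (NT3-/-Bax-/- minus Bax-/-) 3 Hox probe sets were called in each direction, against 4.53% higher and 5.13% lower of all probe sets. The effect in TrkC+ cells minus that in TrkC- cells was 1.76 for Hoxd8 (adjusted p = 0.0132), 1.44 for Hoxd3 (adjusted p = 0.0069), -1.67 for Hoxb5 (adjusted p = 0.0172) and -1.39 for Hoxb1 (adjusted p = 0.0173), and the second probe sets of Hoxd8 and Hoxc5 were called at 1.61 and -1.67. Of 10 fibroblast markers 9 were called higher without NT3 in TrkC- cells and 0 in TrkC+ cells, and their part in these differences was not tested. Without Bax-/- TrkC- replicate 1 the count of 6 was 2, and the calls of Hoxb1 and Hoxb5 were lost (adjusted p = 0.0628 and 0.0777).

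For mlcNT3 against wild-type the effect on Hoxb1 was 2.48 larger in TrkC+ than in TrkC- cells (adjusted p = 0.0224), 1 call against 0.0244% of all probe sets, and the call was lost without any 1 of the 8 arrays (count of 0).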

How the results depend on the processing

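Of 1145 values of single Hox genes under an alternative, 981 kept their direction and side of the threshold, 164 kept the direction only and 0 reversed; 52 of 98 calls of single genes held under every alternative run per gene, which leaves out the study's thresholds and the methods' t-test, and leaving out an array lost most of the rest (129 of 599). For genes with 1 probe set the mean over probe sets repeats the main value, so that alternative could not lose their calls. Counts of Hox calls moved as follows. Between p0 levels the TrkC+ count of 1 was 2 with the low filter or trended robust variances and 0 with only the groups compared, the TrkC- count of 3 was 5 with trended robust variances, and the test between them, 0, gave 1. With only the groups compared the counts became 3 for adult levels without a wheel, 10, 3 and 2 for the sort in wild-type, Bax-/- and NT3-/-Bax-/- cells, 1 and 3 for NT3 loss in TrkC+ and TrkC- cells, and 4 for mlcNT3 TrkC+ cells. The low filter removed Hoxb1, so both mlcNT3 counts of 1 became 0, and the NT3 loss count between populations was 3. At the study's thresholds counts were 10, 5 and 5 for p0 levels in TrkC+ cells, in TrkC- cells and between them, 4 for adult levels averaged, 11 for the wild-type sort, 2 and 3 for Bax loss in TrkC+ and TrkC- cells, 5 for mlcNT3 TrkC+ cells, and 11 and 5 for NT3 loss and mlcNT3 between populations. The methods' t-test at those thresholds gave 2 and 5 for p0 levels in TrkC+ and TrkC- cells, 3 and 5 for adult levels without and with a wheel, 9 for the sort at L1, 3, 4, 2 and 4 for the sort in wild-type, Bax-/-, NT3-/-Bax-/- and mlcNT3 cells, 1 and 3 for NT3 loss, 2 for mlcNT3 TrkC+ cells and 2 for Bax loss in TrkC- cells. After Benjamini-Hochberg it gave 0 for all of these but adult levels with a wheel (3) and the sort at L1 (5) and L5 (5). Leaving out 1 array at a time gave 0 to 1, 2 to 3 and 3 to 5 for p0 levels in TrkC+ cells, TrkC- cells and averaged, and 4 to 6, 7 to 8 and 12 to 15 for adult levels without a wheel, with one and averaged. It gave 0 to 1 for the wheel at L5, 13 to 14 and 8 to 11 for the sort at L1 and L5, and 0 to 2, 4 to 7, 6 to 12 and 5 to 8 for the sort in the 4 genotypes as ordered above. It gave 0 to 2 for Bax loss in TrkC+ cells, 3 to 10 and 4 to 11 for NT3 loss in TrkC+ and TrkC- cells, 1 for mlcNT3 TrkC+ cells, and 2 to 9 and 0 for NT3 loss and mlcNT3 between populations. Between adult levels Hoxd10 lost its averaged call with trended robust variances (adjusted p = 0.0682) and Hoxc9 without L1 wheel replicate 3 or L5 wheel replicate 2 (up to 0.0587). Where 1 array remained in a group, it was assumed to vary like the other groups.

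Replicate numbers are shared between groups, but no source says that they mark an animal or a day, and same-numbered arrays did not deviate together throughout: correlations of deviations ran from -0.0700 to 0.00623 for L1 TrkC+ with TrkC-, from -0.0247 to 0.0177 for L1 with L5 TrkC+ cells, from 0.0849 to 0.203 for L5 TrkC+ with TrkC-, from 0.0626 to 0.230 for L1 with L5 TrkC- cells, from -0.241 to -0.0542 for adult levels without a wheel and from -0.0587 to 0.202 with one. They were 0.197, 0.283, 0.158 and 0.00768 for TrkC+ with TrkC- cells in wild-type, Bax-/-, NT3-/-Bax-/- and mlcNT3 mice, with 2 pairs each, too few to show pairing. Arrays of other numbers gave -0.141 to 0.0436 for L5 TrkC+ with TrkC- and -0.169 to 0.0765 for L1 with L5 TrkC- cells. In both of these sets arrays deviated most like the array of their own number, and the main fits did not use it. In the other sets of L1 or L5 arrays this was not so. In sample order the L1 TrkC+ array numbered 2 follows the other p0 level arrays of that number and precedes those numbered 3. Its number may thus not match theirs, and the comparisons and the replicate block used the numbers as given. With the replicate block the p0 counts between levels were 0 in TrkC+ cells, 3 in TrkC- cells and 3 averaged, those of adult levels 7, 8 and 14 without a wheel, with one and averaged, those of the sort 15 at L1, 12 at L5, 9 in wild-type, 8 in Bax-/-, 13 in NT3-/-Bax-/- and 13 in mlcNT3 cells, and those of NT3 loss 5 and 10 and of mlcNT3 1 in TrkC+ cells. The cause was not tested for any of these shifts, apart from fewer arrays or probe sets in the fits named for that.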
